A study of Rattus norvegicus with 6 samples.

Results

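The 6 protein-coding genes of the rat mitochondrial DNA that encode subunits of respiratory complexes III, IV and V were followed across 6 RNA sequencing libraries. They are Mt-cyb of complex III, Mt-co1, Mt-co2 and Mt-co3 of complex IV, and Mt-atp6 and Mt-atp8 of complex V. They were taken from a table of 30560 genes by their listed Ensembl identifiers. That rule holds no measured value, but the members were chosen with earlier results of these data known. The cells were primary bone marrow mesenchymal stem cells from rats, used between passages 3 and 5 and placed under osteogenic differentiation. The 3 control samples (siNC) received a scrambled siRNA and the 3 siS100A16 samples an siRNA that silences S100A16, a calcium-binding protein of the S100 family. Both groups underwent the same differentiation, and the comparison addresses what changes in differentiating cells when S100A16 is lowered. The labels do not say whether replicates are separate cultures or rats, and the p-values below reflect only the scatter of these samples, which could be technical.

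Complexes III and IV pass electrons from ubiquinol to cytochrome c and on to oxygen and pump protons across the inner mitochondrial membrane, and complex V, the ATP synthase, uses the returning protons to make ATP. The core subunits described here are encoded by the mitochondrial genome and assembled with subunits encoded in the nucleus. The 6 genes lie on the same strand and are transcribed as part of long precursor RNAs that are cut into separate messengers, mostly at the transfer RNAs between them. Mt-atp8 and Mt-atp6 stay together on a shared messenger on which their reading frames overlap. Mesenchymal stem cells are known to shift from glycolysis towards oxidative phosphorylation as they become osteoblasts.

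The deposited table holds FPKM values (reads per kilobase of gene, scaled to the library's total of reads counted to genes) under identifiers without gene names. The length by which each gene's reads had been divided could be worked out from the values, and it served as the check of identity. It was 1545 nt for Mt-co1 (ENSRNOG00000034234), 684 nt for Mt-co2 (ENSRNOG00000030371) and 784 nt for Mt-co3 (ENSRNOG00000030700). For Mt-cyb (ENSRNOG00000031766) it was 1143 nt, for Mt-atp6 (ENSRNOG00000031979) 681 nt and for Mt-atp8 (ENSRNOG00000033299) 204 nt. All 6 equal the length that the textbook size of the protein gives with its stop codon, which in Mt-co3 is an incomplete codon. A length alone does not fix an identity, since between 2 and 12 other genes with reads in the table have the same length as a given member. All 6 genes were kept. Nuclear genomes carry copies of mitochondrial DNA, and how reads shared with them were counted is not given in the sources used here.

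Library totals ran from 7135826 to 8059327 reads in siNC and from 5387539 to 6937001 reads in siS100A16, and between 17895 and 18038 genes were above 0 in siNC against 15778 to 16609 in siS100A16. The part of these depth and detection differences in the results below was not tested. The level of S100A16 itself, the markers of mesenchymal and blood cells and the nuclear subunits of the respiratory chain were not assessed, because the identifiers could not be paired with names. In RNA from whole cultures, less RNA per cell and fewer cells of a kind cannot be told apart.

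The 6 genes together took less than the control share of the library in every sample given S100A16 siRNA. They held 3.29%, 3.93% and 3.31% of the reads in siNC replicates 1 to 3, and 1.59%, 1.60% and 1.56% in siS100A16 replicates 1 to 3. The groups did not overlap, and the exact 95% binomial interval of a share reached at most 0.014 percentage points to either side (counting error only). The mean share was 2.22-fold higher in siNC, at 3.51% ± 0.361 against 1.58% ± 0.0224 after silencing (SD, n = 3 each). The exact two-sided permutation test gave p = 0.1, the smallest that 3 samples against 3 allow. Mt-co3 made up 40.1% of the difference of 1.93 percentage points and Mt-co1 33.6%. In the controls they already held 31.6% and 38.5% of the reads of the 6 genes. Most of the difference thus lay in the members that held most reads. Mt-atp6 contributed 11.8%, Mt-co2 10.2% and Mt-cyb 4.23%, beside control shares of 10.4%, 10.96% and 8.54% of those reads.

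**Figure D1:**
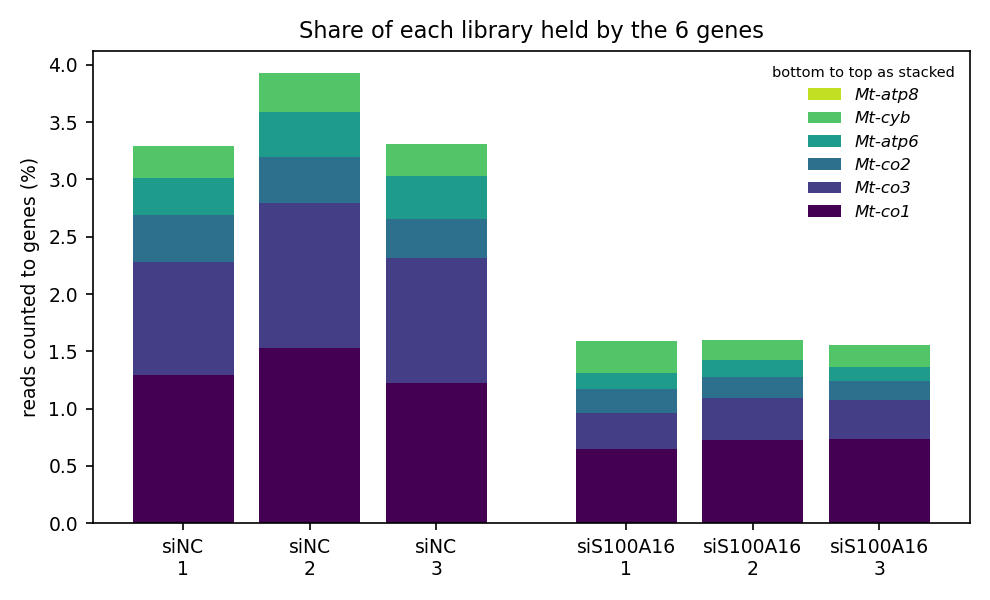
Share of all reads counted to genes (y axis, percent) held by the 6 genes in each of the 6 samples (x axis), stacked by gene. The siNC stacks reach 3.29% to 3.93% and the siS100A16 stacks 1.56% to 1.60%, and Mt-atp8 is too thin to be seen.

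By gene, 5 of the 6 members fell and none rose after S100A16 siRNA, where 4.27% of the 12336 genes tested fell and 16.4% rose (limma on log2(FPKM + 1), Benjamini-Hochberg adjusted p under 0.05). All 6 passed the filter on low genes, which asked for an average of 1 FPKM or more. For the 5 genes that fell, every siNC value lay above every siS100A16 value, an arrangement found for 12.2% of all genes tested. The median log2 fold change over the 6 members was -1.23, beside 0.17 over all genes tested. With median-of-ratios scaling the median over all genes was -0.02, and then all 6 members fell, where 6.66% of the genes tested did.

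The catalytic core of cytochrome c oxidase is formed by Mt-co1, which carries the heme groups and a copper centre at which oxygen is reduced, and Mt-co2, which takes electrons from cytochrome c. Mt-co1 stood at 8393, 9917 and 7939 FPKM in the siNC samples and at 4192, 4721 and 4770 FPKM in the siS100A16 samples. All 3 siS100A16 values were close together and below the lowest control. The mean fell from 8750 ± 1036 to 4561 ± 321 FPKM (SD, n = 3 each), to 52.1% of the control level, with a log2 fold change of -0.94 (SE 0.12 and adjusted p = 0.00485 by limma). The call was lost without the filter on low genes (log2 fold change -0.94, limma adjusted p = 0.0986). With quantile normalization, which gives each gene a value from its rank, the direction turned (0.29, limma adjusted p = 0.14), as its rank by FPKM within the library went from 12, 11 and 11 in the controls to 11, 10 and 9 after silencing.

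Mt-co2 stood at 5921, 5866 and 5019 FPKM in siNC and at 2969, 2774 and 2437 FPKM in siS100A16. The groups lay far apart relative to their spread, at means of 5602 ± 506 and 2727 ± 269 FPKM (SD, n = 3 each). Its log2 fold change was -1.04 (SE 0.13 and adjusted p = 0.00448 by limma). It kept its direction and its call under all 18 alternatives run, as did Mt-co3 and Mt-atp6, though some of these alternatives cannot change the fold change.

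Mt-co3, the subunit beside the catalytic core of the same complex, had the largest fold change among the 5 abundant members. It stood at 12585, 16079 and 13869 FPKM in siNC and at 4031, 4583 and 4342 FPKM in siS100A16. The lowest control was thus well above the highest silenced sample. The means were 14177 ± 1767 and 4319 ± 277 FPKM (SD, n = 3 each), a level 3.28-fold higher in siNC, with a log2 fold change of -1.71 (SE 0.13 and adjusted p = 0.00263 by limma). By rank it went from positions 9, 6 and 6 in siNC to 14, 11 and 11 in siS100A16. With quantile normalization its log2 fold change was smaller, at -0.80, and still past the threshold (limma adjusted p = 0.0227).

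In complex V, Mt-atp6 encodes the membrane subunit that forms the proton path of the ATP synthase. It stood at 4778, 5807 and 5412 FPKM in siNC and at 2114, 2161 and 1725 FPKM in siS100A16, without overlap. The mean fell from 5332 ± 519 to 1999.98 ± 239 FPKM (SD, n = 3 each), to 37.5% of the control level. Its log2 fold change was -1.42 (SE 0.13 and adjusted p = 0.00413 by limma).

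Mt-atp8, the small subunit that joins the peripheral stalk in the membrane, was measured from few reads. It had 92, 112 and 80 reads in siNC and 27, 9 and 21 in siS100A16, or 59.6, 76.9 and 48.7 FPKM against 19.1, 6.91 and 19.1 FPKM. The groups did not overlap, but the 9 reads of siS100A16 replicate 2 carry an exact 95% Poisson interval from 4.12 to 17.1 reads (counting error only). Its log2 fold change was -2.07 (SE 0.37 and adjusted p = 0.00939 by limma), and the call was lost without siNC replicate 2 (-1.90, limma adjusted p = 0.0512). Per length, Mt-atp6 stood 80.1-, 75.5- and 111-fold above Mt-atp8 in the siNC samples, although both reading frames lie on a shared messenger. How reads in the overlap of the frames were assigned is not given in the sources used here, and the value of Mt-atp8 is therefore uncertain.

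Mt-cyb, cytochrome b, is the only complex III subunit that the mitochondrial genome encodes and holds the heme groups and quinone sites of the complex. It was the member that did not pass the test. It stood at 2425, 2938 and 2503 FPKM in siNC and at 2473, 1532 and 1725 FPKM in siS100A16. The groups overlapped, because siS100A16 replicate 1 lay within the control range while the other two samples lay below it. The means were 2622 ± 277 and 1909.8 ± 497 FPKM (SD, n = 3 each), and the log2 fold change was -0.48 (95% interval -0.91 to -0.05, limma adjusted p = 0.104, unadjusted p = 0.0319).

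The call for Mt-cyb depended on that sample and on scaling. Without siS100A16 replicate 1 its log2 fold change was -0.68 (limma adjusted p = 0.0396), and with estimated sample weights -0.64 (limma adjusted p = 0.0434). It was -0.72 with median-of-ratios scaling (limma adjusted p = 0.0493), -0.73 with totals taken without the 100 most abundant genes (limma adjusted p = 0.0436) and -0.97 with each library's trend with gene length removed (limma adjusted p = 0.0175). Its direction was the same in these fits. The 100 most abundant genes include every member but Mt-atp8, so the members' own fall enters those totals. With the 100 most abundant other genes taken out instead, the log2 ratio of the share of Mt-cyb was -0.68, which was not fitted by limma.

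**Figure D2:**
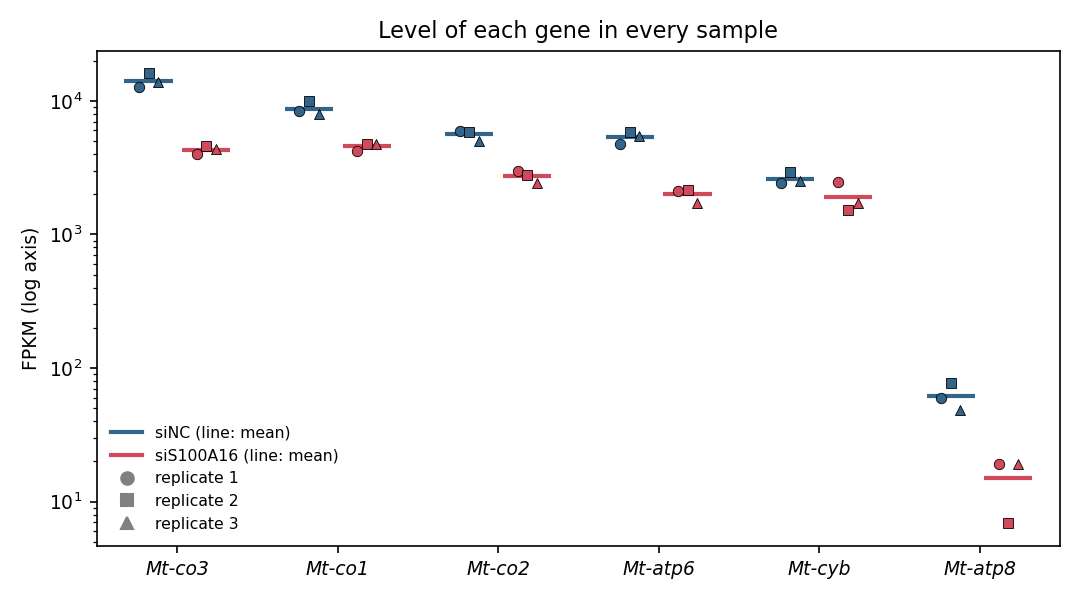
FPKM (y axis, log scale) of each gene (x axis, ordered by the siNC mean) in the 3 siNC and 3 siS100A16 samples, with a line at each group's mean. The groups separate for 5 genes, and for Mt-cyb siS100A16 replicate 1, at 2473 FPKM, lies among the controls.

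The order of the genes by level per length, in FPKM, was not the same in both groups. In siNC it ran Mt-co3, Mt-co1, Mt-co2, Mt-atp6, Mt-cyb and Mt-atp8, and the neighbours Mt-co2 and Mt-atp6 (5602 ± 506 and 5332 ± 519 FPKM) did not differ beyond their spread. In siS100A16 Mt-co1 came first with 4561 ± 321 FPKM, within the spread of Mt-co3 with 4319 ± 277 FPKM. Mt-atp6 and Mt-cyb were likewise level there, at 1999.98 ± 239 and 1909.8 ± 497 FPKM, and in siS100A16 replicate 3 they stood at 1725 FPKM each. By rank within the whole table, Mt-co3 stood above Mt-co1 in all 3 siNC samples and below it in all 3 siS100A16 samples. Mt-co2 ranked 14th or 15th in siNC and 19th to 23rd in siS100A16, and Mt-atp6 14th to 16th and 23rd to 34th.

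The levels of the genes relative to each other also differed between the groups in most samples. Such ratios within a library are free of any factor common to the library, but not of a trend with gene length. They were not worked out with that trend removed. Of the 15 ratios between members, 12 separated all siNC samples from all siS100A16 samples. The 15 ratios come from 6 genes and are not independent, so that the count is a description only. The levels of 41.6% of all genes tested separated the groups in either direction, but ratios between other genes were not worked out. The family of 15 ratios and 6 shares could not pass correction, since its smallest adjusted p was 0.124 (exact two-sided permutation tests, raw p = 0.1, Benjamini-Hochberg). Larger differences, with wider spread after silencing, involved Mt-cyb or Mt-atp8. That of Mt-co3 to Mt-cyb was -1.23 on the log2 scale (SDs 0.05 and 0.45 for control and silenced samples). Relative to the spread between samples, the clearest case lay within cytochrome c oxidase. The ratio of Mt-co1 to Mt-co3 was 0.667, 0.617 and 0.572 in siNC and 1.04, 1.03 and 1.10 in siS100A16, so that Mt-co3 exceeded Mt-co1 in all 3 controls and in 0 of 3 silenced samples. The difference was 0.77 on the log2 scale, against SDs of 0.11 and 0.05 for the control and silenced samples (n = 3 each, exact two-sided permutation p = 0.1, adjusted p = 0.124).

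The ratio of Mt-co2 to Mt-co3 was also higher in each silenced sample than in each control, at 0.737, 0.605 and 0.561 against 0.471, 0.365 and 0.362. The ratio of Mt-co1 to Mt-co2, both of the catalytic core, overlapped between the groups. It was 1.42, 1.69 and 1.58 in siNC and 1.41, 1.70 and 1.96 in siS100A16, a log2 difference of 0.10 (exact two-sided permutation p = 0.5, adjusted p = 0.5). The ratio of Mt-co3 to its neighbour on the genome, Mt-atp6, differed less than those of Mt-co3 with Mt-co1 and Mt-co2 but more than that of Mt-co1 to Mt-co2, with a log2 difference of -0.29. It was 2.63, 2.77 and 2.56 in the controls against 1.91, 2.12 and 2.52. Those groups did not overlap, but siS100A16 replicate 3 lay just below the lowest control.

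Of the members' shares of the reads of the 6 genes, that of Mt-cyb had the highest ratio between silenced and control samples. It was 8.42%, 8.55% and 8.64% in siNC and 17.7%, 10.9% and 12.6% after silencing. The controls were nearly equal, while the silenced samples all lay above them and far apart. Mt-co3 made up 31.6% ± 1.48 of the reads of the 6 genes in the controls and 21.4% ± 1.37 after silencing (SD, n = 3 each), and Mt-co1 38.5% ± 1.27 and 44.5% ± 3.45. Both pairs of groups were apart (exact two-sided permutation p = 0.1, adjusted p = 0.124 each). The share of Mt-co2 overlapped between the groups, at 10.96% ± 1.16 and 11.76% ± 1.03 (exact two-sided permutation p = 0.4, adjusted p = 0.442).

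**Figure D3:**
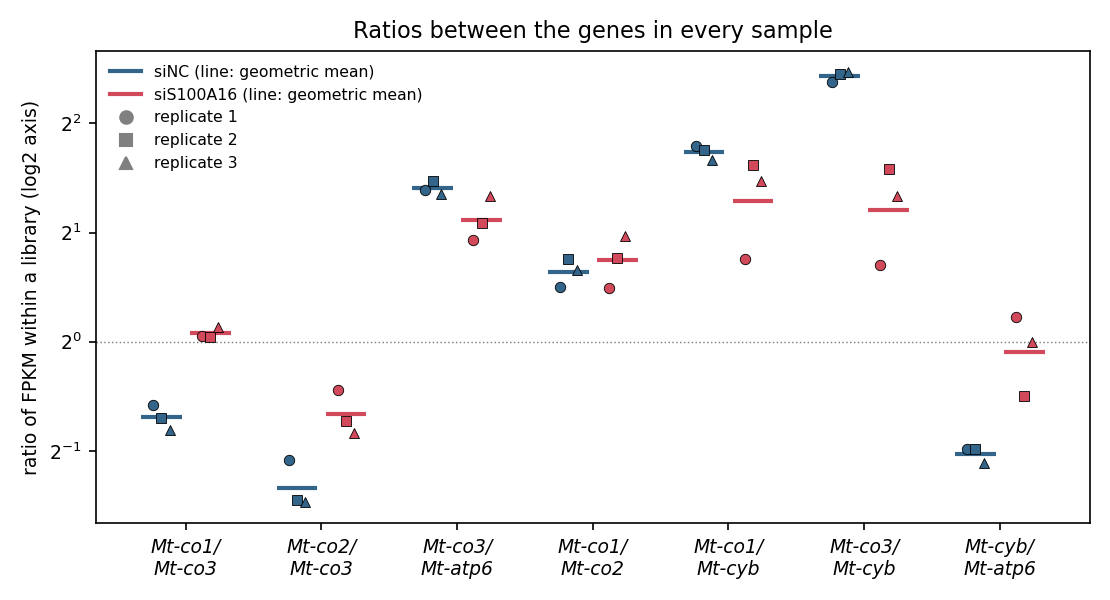
Ratio of FPKM between pairs of the 5 abundant genes (y axis, log2 scale) in each sample, with a line at the geometric mean of each group and a dotted line at equal levels. Mt-co1 to Mt-co3 lies at 0.572 to 0.667 in siNC and 1.03 to 1.10 in siS100A16, and the ratios that involve Mt-cyb spread widely in siS100A16.

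Samples differed in how far single members departed from the rest. Among the controls, siNC replicate 2 had the highest value of every member but Mt-co2. In siS100A16 the summed share had a coefficient of variation of 1.41%, against 10.3% in siNC, although Mt-cyb alone varied by 26.0% there. In siS100A16 replicate 1, Mt-cyb was highest of the group while Mt-co1 and Mt-co3 were lowest. Counting error of the 5 abundant members, taken at the mean reads of a group, was at most 1.08% of their level, well under the spread between samples.

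The members were set beside other genes of similar level or length. With values as deposited, of the 48 other genes averaging 1000 FPKM or more, 17 rose and 12 fell, and their median log2 fold change was 0.23. Of the 3046 other tested genes as long as the members, from 204 to 1545 nt, 880 rose and 105 fell, with a median of 0.48. Taking out the trend of values with gene length in each library made the fold change of Mt-co1, Mt-co2, Mt-co3, Mt-cyb and Mt-atp6 larger in size, between -0.97 and -2.21, while Mt-atp8 was at -1.997. After median-of-ratios scaling the balance among the 48 genes turned, with 10 that rose and 14 that fell, while 455 rose and 136 fell among the 3046. No test of a difference between the members and these classes was made.

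**Figure D4:**
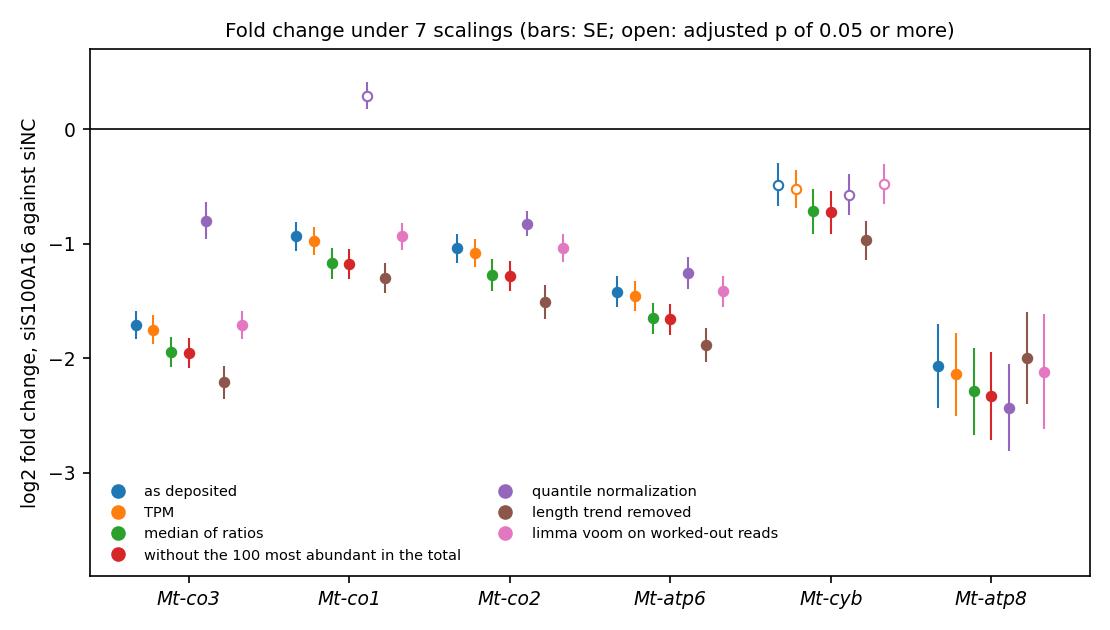
Log2 fold change of siS100A16 against siNC with its SE (y axis) for each gene (x axis) under 7 ways of scaling or fitting, where open points did not reach an adjusted p under 0.05. Mt-co2, Mt-co3, Mt-atp6 and Mt-atp8 lie below 0 and are filled throughout, Mt-co1 lies at 0.29 with quantile normalization and below 0 otherwise, and Mt-cyb is below 0 throughout but filled in only some.

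Outside the 6 genes, the identifiers most like their mean profile were ENSRNOG00000031033 and ENSRNOG00000058039, among 816 genes averaging 100 FPKM or more. The likeness was measured as Pearson's r of log2(FPKM + 1) over the 6 samples, which belong to 2 groups, so that any gene with a large and even fall scores high. The first, with r = 0.979, stood at 2324, 2979 and 2784 FPKM in siNC and at 1177, 1047 and 906 FPKM in siS100A16. The second, with r = 0.978, stood at 222, 234 and 177 FPKM against 67.9, 65.0 and 84.8 FPKM. Neither is named in the sources used here. Their worked-out lengths were 1039 and 1621 nt, and whether either is a mitochondrial gene was not tested. An r of at least 0.95 was reached by 10 of the 816 genes.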

How the data were processed

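Total RNA was sequenced from 6 samples, per the labels, with a library kit described there as unicellular. The authors deposited 1 table of FPKM values for 30560 genes, unscaled between samples beyond the read total. The submitters' processing notes name HISAT2 2.1.0 and DESeq2 1.14.1 without a role and a mouse genome build, while all 30560 identifiers are of rat genes. Read counter, annotation release, strand and the treatment of reads shared with nuclear copies of mitochondrial DNA are not given in the sources. Control and experimental columns were matched to siNC and siS100A16 by number. The reference of 47357 rat genes lists 0 Ensembl identifiers and 0 mitochondrial genes. The planned lists of cell markers, nuclear subunits and mitochondrial RNA factors were therefore not tested. Member names come from the rule that listed their identifiers, and the protein sizes used to check them from general knowledge.

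Read totals and, for all 22692 genes above 0, reads and lengths were worked out from the FPKM values as whole numbers (relative tolerance 1e-12). Factors shared by reads and length of a gene are lost this way, and the reads sum to 99.6% to 99.7% of the totals. The 12336 genes averaging at least 1 FPKM over the 6 samples entered a fit by limma 3.58.1 (R 4.3.3) of log2(FPKM + 1), with the group as the only term, a variance prior that follows the level, and Benjamini-Hochberg adjustment over all of them. This scale understates changes of low genes. Called means an adjusted p under 0.05, two-sided. Single values were compared by exact permutation in scipy 1.17.1. The recovery of reads and the limma fit were tested on simulated data. Alternatives were a pseudocount of 0.1, other filters, rescalings, removal of the length trend (lowess, span 0.3), limma voom on the worked-out reads, other variance and weight settings, a replicate block, and each sample left out. The text names the 6 members and the 2 genes most like them. The members and lists were chosen with earlier results of these data known.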

Additional observations from a re-analysis of the deposited data

How the results depend on the processing

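Of 108 alternative values for the log2 fold changes of the 6 genes, 100 kept their direction and their side of the threshold. The other filters, the variance prior without trend and the replicate block leave the fold change itself as it was. Only the side of the threshold could change there. Mt-co1 lost its call without the filter on low genes (-0.94) and turned to 0.29 with quantile normalization, which assigns values by rank. Mt-cyb passed the threshold with median of ratios (-0.72), with the length trend removed (-0.97) and with estimated sample weights (-0.64). It also passed (-0.73) with totals without the 100 most abundant genes, which include every member but Mt-atp8. With 1 sample left out, Mt-co1 ran from -1.0025 to -0.84, Mt-co2 from -1.12 to -0.96, Mt-co3 from -1.79 to -1.61, Mt-cyb from -0.68 (passing, without siS100A16 replicate 1) to -0.34, Mt-atp6 from -1.49 to -1.31 and Mt-atp8 from -2.29 to -1.62, with the call of Mt-atp8 lost at -1.90 without siNC replicate 2.

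Against reads without the 100 most abundant other genes, the log2 ratio of shares was -1.34 for the 6 genes together (-1.27 as a share of summed TPM), -1.13 for Mt-co1, -1.23 for Mt-co2, -1.90 for Mt-co3 and -1.61 for Mt-atp6. Among the 6 genes on the FPKM scale, the share of Mt-co1 moved to 0.29 and that of Mt-co3 to -0.48. The other 119 of 127 alternative shares and ratios moved by less than the spread between samples. Some of these could not move: the replicate block changes only the p-value of a share or ratio. On the FPKM scale, the ratios of Mt-atp8 to Mt-atp6 and of Mt-co1 to Mt-cyb differ from those of reads only by a constant factor. Leaving out 1 sample gave -1.19 to -1.06 for the 6 genes together and 0.16 to 0.27 and -0.61 to -0.51 for the shares of Mt-co1 and Mt-co3 among the 6.

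Over the whole table, 2556 genes were called, 2029 higher and 527 lower. Quantile normalization gave 1511, 665 and 846, removal of the length trend gave 1407 called and 753 higher, totals without the 100 most abundant genes gave 1698, 901 and 797, and median of ratios gave 928 higher and 821 lower. Leaving out 1 sample gave 552 (siNC replicate 2) to 3182 calls (siS100A16 replicate 2), 459 to 2198 higher and 93 to 984 lower. The cause of these changes was not tested. With the replicate number as a term (replicate block) 2246 genes were called and no call of the 6 genes changed. Deviations of same-numbered samples correlated at -0.0339, 0.0532 and 0.0411 for numbers 1 to 3, so the numbers were not taken as pairs. Counting error was largest for Mt-atp8, with 9 to 112 reads. The part of library depth in the other values was not tested.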
